A study of Homo sapiens with 8 samples.

Results

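The RBM (RNA-binding motif) genes are the protein-coding genes whose symbol is RBM, RBMX or RBMS with a number or letter, taken by name and not by any measured value; RBM8A and RBM17 were set aside. The deposited table of PC3 cells held 38 of them among 17010 genes, 13068 of those protein-coding, and all 38 had enough reads to be tested. RBM11, RBM44 and RBM46 are not in the table. PC3 is an established human prostate cancer line. RNA was sequenced in 8 libraries from cells grown in 3D culture, in medium with 3% serum, as 4 groups of 2. The sictrl group had received a control small interfering RNA (siRNA) and the siSF3B2 group an siRNA against SF3B2, each for 72 h. The PlaB group had received 0.5 µM pladienolide B for 24 h, and the DMSO group the solvent, for a time that the sources used here leave unstated. The comparisons ask how the RBM transcripts respond when the SF3b complex is depleted of a subunit or blocked by a small molecule.

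Most RBM proteins carry RNA recognition motifs, the commonest RNA-binding fold in human proteins, and the shared name does not make them 1 pathway. Some are spliceosome parts, some switch exons on or off, others guide the enzymes that place N6-methyladenosine (m6A) on RNA or hand RNA to the nuclear exosome. SF3b, within the U2 small nuclear ribonucleoprotein, holds the branch point of an intron. SF3B2 is one of its subunits, and pladienolide B binds the complex and stops splicing.

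Libraries held 35461248 to 72983584 counted reads, with gene medians of 227 and 223.5 reads for PlaB and 871 to 1399.5 reads for the other 6. Whether both libraries of a group stand for separate cultures is not stated, and the spread behind each p-value may be technical. The deposited table lists only genes with at least 1 read in every library. SF3B2 was at 227.6 and 228.0 CPM (read counts relative to the library total, scaled between libraries by TMM) in the sictrl libraries and at 36.4 and 30.08 in the siSF3B2 libraries, in the direction of the labels, with a log2 fold change of −2.78 ± 0.24 (SE) and an edgeR adjusted p of 0.0513. All 10 PC3 markers looked for were in the table, whereas KLK2, KLK3 and FOLH1, genes low or absent in this line, were not. With pladienolide B 9 of those 10 markers fell (7 with RLE scaling). Of 10 markers of blood, vessel, fibroblast and muscle cells only PECAM1, COL3A1 and LYZ were in the table, and their summed level was 34.1 to 49.8 CPM in the 6 libraries without the drug and 8.81 and 9.32 with it; any part of this in the results was not tested. In bulk RNA, fewer cells of a type and less RNA per cell cannot be told apart.

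The RBM genes made up a larger share of the messenger RNA in both pladienolide B libraries. Their summed TPM, the share of transcripts after correction for gene length, was 1530 and 1595 with control siRNA, 1360 and 1598 with SF3B2 siRNA, 1559 and 1698 with DMSO, and 4183 and 4850 with pladienolide B. In the 4 control libraries (sictrl and DMSO) the highest levels per length belonged to RBM39, a U2AF2-like splicing factor, at a mean of 209.3 TPM (205.9 to 216.4), to RBM3, a cold-induced protein, at 137.6 TPM (119.6 to 162.5), and to RBMX, also called hnRNP G, at 127.7 TPM (117.3 to 142.4). RBM6 followed at 127.5 TPM (108.2 to 146.4), and the ranges of RBM3, RBMX and RBM6 overlapped. The lowest were RBMS3 at 0.6546 TPM and RBM20, the heart regulator of titin splicing, at 0.5323 TPM, again with overlapping ranges.

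With pladienolide B 20 of the 38 RBM genes rose and 7 fell against DMSO, at a Benjamini-Hochberg adjusted p under 0.05 in edgeR's quasi-likelihood test. The 27 called genes are 71.1% of the family, against 68% of the 16488 genes tested and 69.8% of the protein-coding ones, so the share called is near the background. The direction was different: 52.6% of the RBM genes rose against 32.5% of all genes tested, and 18.4% fell against 35.5%. Among protein-coding genes 29.7% rose and 40.1% fell. The median log2 fold change was 0.68 for the RBM genes and −0.11 for all genes. With scaling by library size alone the split was 15 higher (39.5%, against 20.1% of all genes) and 15 lower (39.5%, against 51.2%), and the medians were −0.19 and −0.97, so the family lay 0.78 above all genes there and 0.79 above them with TMM. In CPM, both PlaB libraries were above both DMSO libraries for 22 RBM genes (57.9%, against 38.6% of all genes) and below them for 9 (23.7%, against 44.1%).

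**Figure D1:**
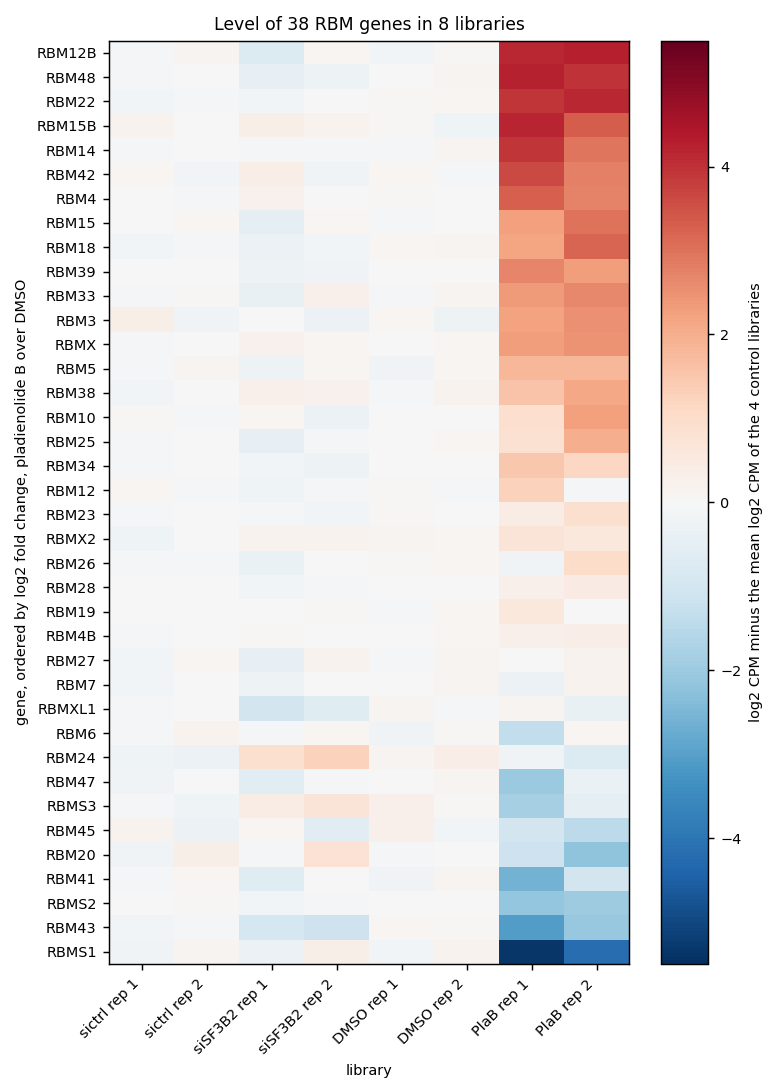
Each cell is the log2 CPM of an RBM gene (rows) in a library (columns) minus its mean log2 CPM over the 4 sictrl and DMSO libraries; red is higher and blue lower. The PlaB columns carry nearly all the colour, from RBM12B at the top, with 527.9 and 579.0 CPM, to RBMS1 at the bottom, with 1.45 and 3.319 CPM.

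The family ranged over log2 fold changes from −4.68 to 4.22, and the pladienolide B libraries differed more from each other than other pairs did. Between them 12 of the 38 RBM genes differed by more than 2-fold (27.6% of all genes tested did), against 0 in each of the other 3 groups. Of all genes, 4.08% did so in the sictrl group, 7.16% in siSF3B2 and 3.95% in DMSO. Those genes were RBM6, RBM10, RBM12, RBM14, RBM18, RBM20, RBM25, RBM26, RBM41, RBM47, RBMS1 and RBMS3. The authors' deposited table, from a test that is not stated, has 18 RBM genes higher and 8 lower at its own adjusted p under 0.05. The share of all genes called by that test was not counted, so this split has no background. In edgeR with the authors' scaling constants 19 RBM genes were higher and 7 lower, against 31.5% and 36.6% of all genes.

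Of 11 RBM genes with a place in the spliceosome, 9 rose, RBM41 fell and RBM6 was not called, where 32.5% of all genes tested rose and 35.5% fell. With library-size scaling 5 were called higher and 2 lower, against 20.1% and 51.2% of all genes. RBM48, a protein of the minor spliceosome that binds ARMC7, was at 21.66 and 24.44 CPM with DMSO and at 415.4 and 346.6 with pladienolide B, beside 20.57 and 21.62 with control siRNA and 16.17 and 17.94 with SF3B2 siRNA. The PlaB values stand far above the rest, at a log2 fold change of 4.05 ± 0.22 (adjusted p = 1.75e-05). RBM22, which contacts U6 and the intron in the activated spliceosome, was at 67.87 and 69.94 CPM with DMSO and at 987.5 and 1150.0 with pladienolide B, beside 59.0 and 62.72 with control siRNA and 57.93 and 65.01 with SF3B2 siRNA. Only the drug libraries of RBM22 stood apart, with a log2 fold change of 3.96 ± 0.22 (adjusted p = 1.75e-05). RBM42, a protein of the U4/U6.U5 tri-snRNP, was at 50.44 and 44.79 CPM with DMSO and at 578.0 and 326.5 with pladienolide B, beside 50.72 and 43.0 with control siRNA and 60.13 and 41.73 with SF3B2 siRNA. Its PlaB libraries were unequal but both above the other 6 (log2 fold change 3.25 ± 0.34, adjusted p = 9.39e-05).

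RBM39, the factor that aryl sulfonamides direct to the DCAF15 ubiquitin ligase, was at 367.0 and 362.6 CPM with DMSO and at 2339.0 and 1822.0 with pladienolide B, beside 369.2 and 360.8 with control siRNA and 300.2 and 321.4 with SF3B2 siRNA. The PlaB libraries did not overlap any other, at a log2 fold change of 2.51 ± 0.23 (adjusted p = 5.42e-05). RBM5, a splicing regulator that works with the helicase DHX15, rose by 1.87 ± 0.23 on the log2 scale. Its relative RBM10, which promotes exon skipping, rose by 1.73 ± 0.39, from 72.62 and 68.58 CPM to 135.0 and 332.7, and the log2 fold change was 0.92 without PlaB replicate 2. RBM25, a U1-associated regulator of 5′ splice sites, rose by 1.48 ± 0.37, and by 0.76 without PlaB replicate 2. With library-size scaling neither RBM10 (0.87) nor RBM25 (0.62) was called. In TPM, PlaB replicate 1 was not above DMSO, at 54.11 for RBM10 (DMSO 55.82 and 56.73) and 85.24 for RBM25 (DMSO 116.2 and 125.5). PlaB replicate 2 was above DMSO, at 172.0 and 223.7 TPM. RBM23, the relative of RBM39, at 0.64 ± 0.21, and RBMX2, of the RES complex, at 0.52 ± 0.19, were called higher with TMM. Their log2 fold changes were −0.23 and −0.35 with library-size scaling. RBMX2 was lower in TPM, at 31.1 and 34.6 with pladienolide B and 42.22 and 45.24 with DMSO. For RBM23 the TPM values overlapped, at 31.51 and 51.97 with pladienolide B and 40.76 and 51.07 with DMSO. RBM6 was at 153.7 and 185.3 CPM with DMSO and 69.27 and 190.2 with pladienolide B, so the groups overlapped (adjusted p = 0.428).

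RBM41, a minor spliceosome protein related to RNPC3, was at 23.11 and 29.56 CPM with DMSO and at 4.272 and 12.85 with pladienolide B, beside 24.72 and 28.08 with control siRNA and 16.51 and 26.12 with SF3B2 siRNA. It fell by 1.62 ± 0.48 on the log2 scale (adjusted p = 0.0172). The PlaB libraries lay below all others, but the call was lost without DMSO replicate 2 (adjusted p = 0.0733), and the log2 fold change was −1.04 without PlaB replicate 1 and −2.63 without PlaB replicate 2.

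In the group that marks RNA with m6A or decides its fate in the nucleus, 3 of 6 RBM genes rose and 0 fell, or 3 and 2 with library-size scaling. The shares for all genes tested were 32.5% higher and 35.5% lower, or 20.1% and 51.2% with library-size scaling. RBM15B, which with its relative RBM15 brings the m6A writer complex to RNA, was at 78.86 and 65.45 CPM with DMSO and at 1381.0 and 769.1 with pladienolide B, beside 86.43 and 75.93 with control siRNA and 96.76 and 88.17 with SF3B2 siRNA. The rise was far beyond the spread of any group (log2 fold change 3.90 ± 0.33, adjusted p = 3.92e-05), and 20.0% of the RBM15B mRNA lies opposite DCAF1. RBM15 rose by 2.73 ± 0.32 and RBM33, an m6A-binding partner of the demethylase ALKBH5, by 2.49 ± 0.28. RBM7, the RNA-binding subunit of the exosome-targeting complex NEXT, was not called at −0.11 ± 0.23. The zinc finger proteins RBM26 and RBM27, linked to the exosome connection PAXT, were not called at 0.43 ± 0.36 and 0.08 ± 0.26, with 45.6% of the RBM27 mRNA inside another gene of its strand. Of the nucleolar members, RBM34 rose by 1.31 ± 0.21. RBM34 reads are uncertain, since 75.6% of its mRNA overlaps ARID4B on the same strand, itself 1.14 ± 0.30 higher on the log2 scale. The other nucleolar members, the ribosome biogenesis factors RBM19 (0.34 ± 0.23) and RBM28 (0.37 ± 0.19), were not called. With library-size scaling 0 of these 3 were called higher and 1 lower, since RBM34 lost its call (0.43, adjusted p = 0.0862) and RBM28 was called at −0.50 (adjusted p = 0.0451). RBM28 was called higher with RLE scaling (0.52, adjusted p = 0.0335), with DESeq2 (adjusted p = 0.0371) and without PlaB replicate 1 (0.45, adjusted p = 0.0255), and RBM19 without PlaB replicate 2 (0.58, adjusted p = 0.012).

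The 14 regulators of splicing, stability or transcription had 5 higher, 5 lower and 4 not called, or 5 higher and 9 lower with library-size scaling. Among all genes tested 32.5% were higher and 35.5% lower, so the split with TMM was near the background. Library-size scaling gave 20.1% and 51.2% of all genes. RBM14, a paraspeckle protein and transcription coactivator, was at 29.31 and 33.77 CPM with DMSO and at 466.0 and 229.3 with pladienolide B, beside 28.14 and 30.01 with control siRNA and 28.22 and 28.42 with SF3B2 siRNA. Its PlaB libraries were both above the other 6, at a log2 fold change of 3.46 ± 0.34 (adjusted p = 7.92e-05). RBM3 was at 184.6 and 142.6 CPM with DMSO and at 793.7 and 984.8 with pladienolide B, beside 213.0 and 151.0 with control siRNA and 167.8 and 135.2 with SF3B2 siRNA (log2 fold change 2.44 ± 0.28, adjusted p = 0.00015). RBMX was at 100.2 and 107.1 CPM with DMSO and at 501.0 and 557.3 with pladienolide B, beside 95.88 and 98.9 with control siRNA and 119.0 and 109.3 with SF3B2 siRNA (log2 fold change 2.35 ± 0.19, adjusted p = 3.4e-05). For RBM3 and RBMX too the drug libraries stood clear of all others. RBM4, a regulator of splicing and translation, rose by 3.00 ± 0.26, and RBM38, a p53 target that binds CDKN1A mRNA, by 1.81 ± 0.24. RBM4 reads are uncertain, since 96.9% of its mRNA is shared with the readthrough gene RBM14-RBM4, itself 4.55 ± 0.50 higher on the log2 scale.

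The 5 regulators that fell include all 3 RBMS genes, which code for binders of single-stranded nucleic acid of the MSSP family. RBMS1 was at 53.92 and 67.42 CPM with DMSO and at 1.45 and 3.319 with pladienolide B, beside 52.82 and 66.18 with control siRNA and 47.41 and 74.63 with SF3B2 siRNA. It fell by 4.68 ± 0.45 on the log2 scale (adjusted p = 6.65e-05), beyond any other RBM gene. RBMS2 was at 24.15 and 24.51 CPM with DMSO and at 5.645 and 6.384 with pladienolide B, beside 24.55 and 26.09 with control siRNA and 22.48 and 22.7 with SF3B2 siRNA. It fell by 2.02 ± 0.21 (adjusted p = 8.24e-05), with a narrow spread in every group. RBM45, a protein found in inclusions of amyotrophic lateral sclerosis, was at 8.141 and 6.087 CPM with DMSO and at 3.319 and 2.511 with pladienolide B, beside 7.671 and 5.446 with control siRNA and 7.341 and 4.384 with SF3B2 siRNA. It fell by 1.28 ± 0.36 (adjusted p = 0.0137), and the call was lost without DMSO replicate 1 (adjusted p = 0.0811).

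RBM20 was at 1.641 and 1.791 CPM with DMSO and at 0.801 and 0.383 with pladienolide B, beside 1.548 and 2.206 with control siRNA and 1.66 and 3.129 with SF3B2 siRNA (log2 fold change −1.52 ± 0.49, adjusted p = 0.0245). The groups did not overlap, but these are low levels, and the call was lost without DMSO replicate 1 (adjusted p = 0.0609), DMSO replicate 2 (0.0823) or PlaB replicate 2 (0.0919). RBMS3, at −1.22 ± 0.42, lost its call without either DMSO library, either sictrl library, siSF3B2 replicate 2 or PlaB replicate 1 (adjusted p from 0.0509 to 0.116), and its log2 fold change was −0.71 without PlaB replicate 1 and −2.0 without PlaB replicate 2. RBM23 likewise lost its call without either sictrl or either DMSO library (0.066 to 0.146) and was at 0.37 without PlaB replicate 2, and RBMX2 without any one of the sictrl, siSF3B2 or DMSO libraries (0.0513 to 0.178). RBM47, an epithelial cofactor of APOBEC1, was not called at −1.04 ± 0.48 (edgeR adjusted p = 0.0884). It was at −0.43 without PlaB replicate 1 and was called at −2.12 without PlaB replicate 2 (adjusted p = 0.000731) and at −1.90 with library-size scaling (adjusted p = 0.0109).

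Of the 4 RBM genes with no clear role here, RBM12B and RBM18 rose, RBM43 fell and RBM12 was not called. All genes tested had 32.5% higher and 35.5% lower. RBM12B was at 27.35 and 32.09 CPM with DMSO and at 527.9 and 579.0 with pladienolide B, beside 28.54 and 33.45 with control siRNA and 18.2 and 32.13 with SF3B2 siRNA. This was the highest log2 fold change of the family, at 4.22 ± 0.32 (adjusted p = 2.75e-05); 47.9% of the RBM12B mRNA lies opposite other genes, and the sources used here do not say if reads were counted by strand. RBM43 was at 8.97 and 8.705 CPM with DMSO and at 0.9918 and 1.958 with pladienolide B, beside 7.517 and 8.001 with control siRNA and 4.207 and 3.8 with SF3B2 siRNA. It fell by 2.59 ± 0.34 on the log2 scale (adjusted p = 0.000322), and its siSF3B2 libraries lay between the PlaB libraries and the controls. RBM18 rose by 2.66 ± 0.34.

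**Figure D2:**
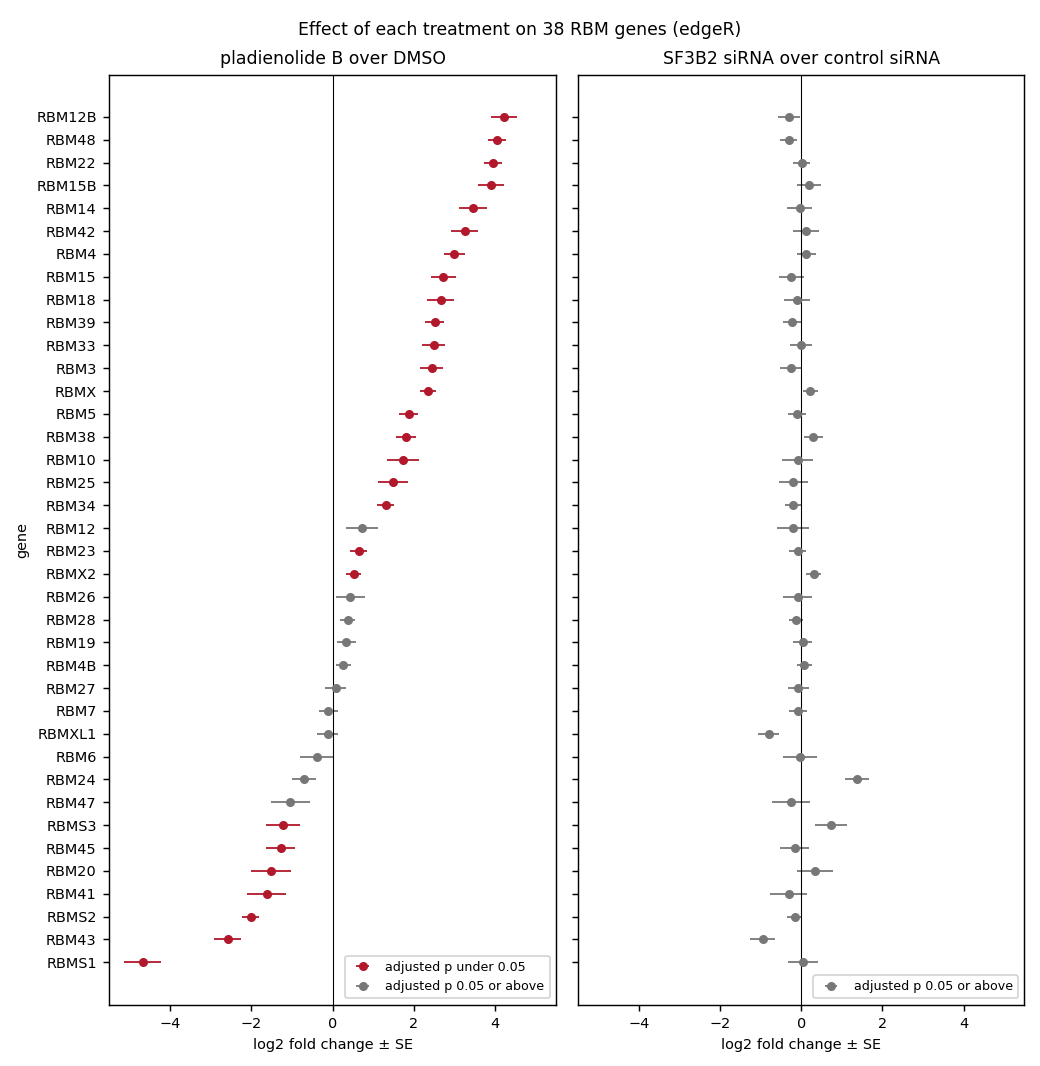
Points are log2 fold changes of the 38 RBM genes with bars of 1 SE, pladienolide B over DMSO on the left and SF3B2 siRNA over control siRNA on the right, red where the edgeR adjusted p was under 0.05. On the left 20 genes are called higher and 7 lower, and on the right 0 are called.

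Promoters are shown for the called RBM genes at both ends of the response that have an entry in the RefSeq table of GRCh38.p14, which held 34 of the 38. Each runs from 250 bases before to 50 bases after the gene's start, 5′ to 3′ on the gene's strand, and capitals mark matches on either strand to the TATA box TATAAA, the CCAAT box, the GC box GGGCGG, the cAMP element TGACGTCA, the E-box CACGTG or the ETS motif GGAAGTG, which may abut or overlap. RBM22 (chr5:150701013-150701312, minus strand) and RBM15B (chr3:51391035-51391334, plus strand) rose, and RBMS1 (chr2:160493758-160494057, minus strand) and RBMS2 (chr12:56521570-56521869, plus strand) fell.
RBM22: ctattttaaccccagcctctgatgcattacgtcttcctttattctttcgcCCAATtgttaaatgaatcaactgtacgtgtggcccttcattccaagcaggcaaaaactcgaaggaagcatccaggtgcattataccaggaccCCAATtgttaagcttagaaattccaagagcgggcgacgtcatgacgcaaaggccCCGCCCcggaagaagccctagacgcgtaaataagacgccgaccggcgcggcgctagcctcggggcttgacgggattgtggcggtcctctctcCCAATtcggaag
RBM15B: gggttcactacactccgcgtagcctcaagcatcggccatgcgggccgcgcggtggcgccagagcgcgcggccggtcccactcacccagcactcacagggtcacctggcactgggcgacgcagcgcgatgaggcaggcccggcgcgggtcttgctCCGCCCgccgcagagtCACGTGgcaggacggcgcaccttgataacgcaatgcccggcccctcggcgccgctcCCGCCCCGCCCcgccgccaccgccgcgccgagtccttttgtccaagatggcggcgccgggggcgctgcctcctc
RBMS1: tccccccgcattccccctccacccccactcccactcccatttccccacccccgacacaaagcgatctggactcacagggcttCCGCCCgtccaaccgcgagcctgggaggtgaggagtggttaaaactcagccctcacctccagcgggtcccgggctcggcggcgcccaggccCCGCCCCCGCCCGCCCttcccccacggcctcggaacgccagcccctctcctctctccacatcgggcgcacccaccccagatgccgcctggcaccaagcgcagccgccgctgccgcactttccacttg
RBMS2: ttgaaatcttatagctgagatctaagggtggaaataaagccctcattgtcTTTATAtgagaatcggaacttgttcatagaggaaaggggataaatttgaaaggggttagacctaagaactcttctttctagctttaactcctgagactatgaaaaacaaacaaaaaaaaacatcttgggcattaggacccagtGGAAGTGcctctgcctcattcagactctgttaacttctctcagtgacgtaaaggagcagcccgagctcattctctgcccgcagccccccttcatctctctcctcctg

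The RBM15B window has a GC content of 74.3% and that of RBMS1 71.0%, so a gene that rose and a gene that fell both start in GC-rich sequence, while RBM22 has 52.7% and RBMS2 43.3%. Over the 34 RBM promoters the median was 61.0%, against 65.3% in 10654 protein-coding genes of the table. CCAAT was found in 52.9% of the RBM promoters and in 36.7% of those of the 10654 genes. The shares for RBM genes and for the 10654 genes were 55.9% and 70.0% for GGGCGG, and 11.8% and 6.02% for TATAAA. They were 8.82% and 3.19% for TGACGTCA, 8.82% and 10.1% for CACGTG, and 11.8% and 15.2% for GGAAGTG. A match is a run of letters and not a known binding site.

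Partners of the RBM proteins were read in the same comparison, in which 32.5% of all genes tested rose and 35.5% fell. As 68% of all genes tested were called, many calls are to be found in any such list. Of 13 m6A writers, erasers and readers 10 rose and 2 fell, with a median log2 fold change of 2.78. The writer subunit WTAP was highest at 4.08 ± 0.21, then the reader YTHDF3 at 3.47 ± 0.29, while the catalytic subunit METTL3 fell by 1.40 ± 0.34 and the helicase YTHDC2 by 2.48 ± 0.36. Of 20 partners of RBM5, RBM10, RBM22, RBM39 and RBM25, 18 rose, led by U2AF2, which binds the polypyrimidine tract (3.51 ± 0.28), and only U2SURP fell (−1.60 ± 0.25). For NEXT and PAXT 6 of 9 rose, with the cap-linked SRRT at 3.97 ± 0.26, and the helicase MTREX fell by 1.95 ± 0.22. In the RES complex and minor spliceosome, home of RBMX2, RBM48 and RBM41, 5 of 13 rose and 3 fell, among them BUD13 of the RES complex at 1.58 ± 0.20 and ZCRB1 at −2.24 ± 0.21. Of 6 paraspeckle proteins, the setting of RBM14, 3 rose and 0 fell. With library-size scaling 20.1% of all genes tested were higher and 51.2% lower. The m6A list then had 10 higher and 2 lower calls, and the splicing partners had 10 higher and 1 lower. NEXT and PAXT had 4 and 3, the RES and minor spliceosome list 2 and 6, and the paraspeckle list 1 and 3.

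Other RNA-binding families gave a range in which the RBM genes sat between the extremes. The shares for all genes tested were again 32.5% higher and 35.5% lower. Of 11 SR splicing factors 10 rose and 0 fell (median 2.26), with SRSF2 at 4.01 ± 0.26, and of 23 hnRNP proteins 15 rose and 1 fell (median 1.80), with HNRNPA0 at 4.61 ± 0.37 and PCBP2 at −1.74 ± 0.22. Of 22 other splicing regulators with RRM or KH domains 7 rose and 8 fell (median −0.18), from TARDBP at 3.03 ± 0.22 to the epithelial regulator ESRP1 at −4.26 ± 0.31. The 14 RBM regulators had a median of −0.41, beside 1.73 for the 11 spliceosomal RBM genes. With library-size scaling 8 SR genes were higher and 1 lower, 14 hnRNP genes higher and 7 lower, and 4 of the other regulators higher and 13 lower. With SF3B2 siRNA 0 genes of any of these lists were called by edgeR, as were 0 of all 16488 genes tested.

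RBM genes that span less of the genome had higher log2 fold changes with pladienolide B. Annotated spans ran from 6.62 kb to 1440 kb with a median of 28.5 kb, close to the 32.3 kb of all protein-coding genes. With the protein-coding genes cut into 4 equal bins by span, 9 RBM genes were in the shortest bin, up to 12.9 kb. Of these 8 rose and 0 fell (median log2 fold change 3.25), where 44% of all protein-coding genes rose and 23.7% fell, while of the 9 in the longest bin, from 78.5 kb, only RBM33 rose and RBM20, RBMS1 and RBMS3 fell (median −0.39), where 16.1% of all rose and 55.8% fell. All protein-coding genes had medians of 0.56, −0.14, −0.63 and −1.11 from the shortest to the longest bin, so the order was not limited to the family. Spearman's rho of span and log2 fold change, a description across genes that share the same 4 libraries, was −0.549 over the 38 RBM genes, −0.487 without RBMS1 and RBMS3, and −0.315 over 12776 protein-coding genes. Of the RBM genes with a single coding exon, RBM12B and RBM15B rose and RBM12 and RBMXL1 were not called; of 804 such genes in all, 54.1% rose and 15.3% fell.

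**Figure D3:**
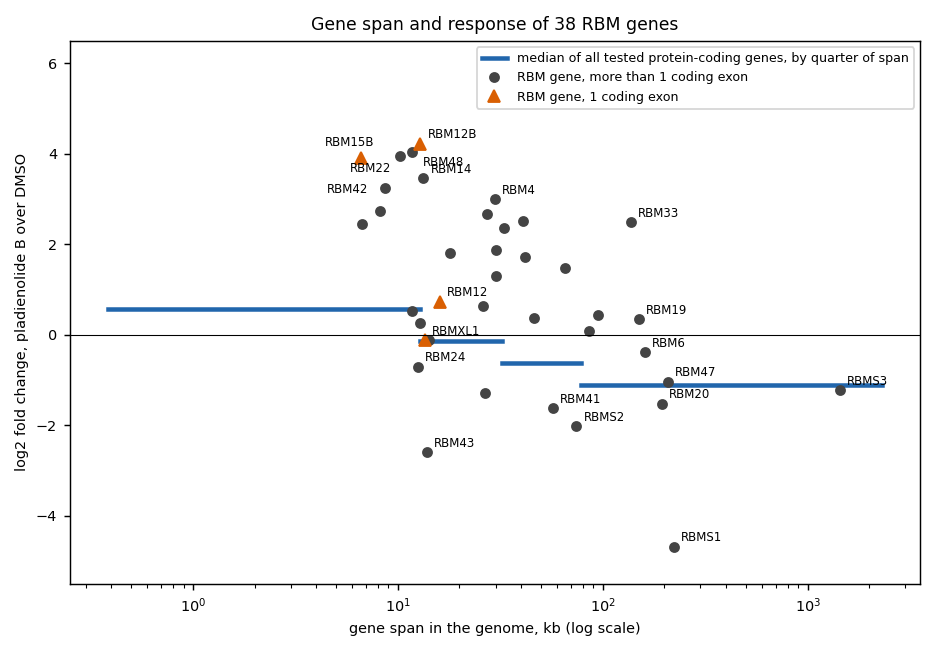
Each point is an RBM gene, by its span in the genome (kb, log axis) and its log2 fold change with pladienolide B over DMSO; triangles have 1 coding exon and bars are the medians of all protein-coding genes in 4 equal bins of span. RBM12B, RBM15B, RBM22, RBM42 and RBM48, all above 3, lie in the shortest bin, up to 12.9 kb, and the lowest point is RBMS1 at −4.68.

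Some related RBM genes, but not all, parted from each other inside the same library, where the ratio does not depend on scaling between libraries. RBM5 and RBM6 overlap on the same strand of chromosome 3. As 14.4% of the RBM5 mRNA overlaps RBM6 exons, part of the reads could be assigned to either gene. The log2 ratio of RBM5 to RBM6 was −0.52 and −0.50 with DMSO and 2.65 and 1.20 with pladienolide B. The ratio of RBM12 to RBM12B was 1.32 and 0.93 with DMSO and −1.77 and −3.27 with pladienolide B. Both ratios changed sign between the groups. For RBM4 over RBM4B it was 1.63 and 1.51 with DMSO and 4.61 and 3.95 with pladienolide B, and for RBM23 over RBM39 it was −2.62 and −2.65 with DMSO and −4.93 and −4.11 with pladienolide B. RBMS1 fell further than RBMS2, with log2 ratios of 1.16 and 1.46 with DMSO and −1.96 and −0.94 with pladienolide B. Other pairs overlapped between the groups. RBM5 over RBM10 was 0.56 and 0.93 with DMSO and 1.68 and 0.39 with pladienolide B. RBM26 over RBM27 was −0.77 and −0.98 with DMSO and −1.16 and −0.14 with pladienolide B. Ratios of gene pairs outside the family were not computed, so these shifts have no background. In 0 of 13 pairs were both genes called in opposite directions.

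RBMXL1 is a retrocopy of RBMX and lacks introns in its coding sequence. The coding sequences of the pair (GENCODE release 44, GRCh38) are identical at 1138 of 1173 aligned positions, or 97.0%. The 120 coding bases from 256 to 375 are shown as a stretch in which reads of the 2 genes can be told apart by 9 differing bases, in capitals; other differences lie outside it.
RBMX: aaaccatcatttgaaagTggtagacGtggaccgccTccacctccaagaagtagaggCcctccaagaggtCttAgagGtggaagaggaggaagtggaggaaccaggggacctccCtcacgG
RBMXL1: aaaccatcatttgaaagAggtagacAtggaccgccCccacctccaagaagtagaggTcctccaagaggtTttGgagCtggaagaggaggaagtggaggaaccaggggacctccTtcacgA

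By runs of 50 bases, 36.7% of the RBMX mRNA is also found in RBMXL1 or a pseudogene and 14.1% of the RBMXL1 mRNA elsewhere, so part of their reads could be assigned to either. RBMXL1 was at 23.63 and 20.26 CPM with DMSO and at 23.96 and 16.3 with pladienolide B, overlapping levels (log2 fold change −0.12 ± 0.26, adjusted p = 0.684), while RBMX rose. The log2 ratio of RBMX to RBMXL1 was 2.22 in both sictrl libraries, 3.49 and 3.02 with SF3B2 siRNA, 2.09 and 2.40 with DMSO and 4.39 and 5.1 with pladienolide B. It was higher under both treatments than in any control library. With SF3B2 siRNA the mean log2 ratio shifted by 1.04 for this pair. Other pairs shifted too, by 1.05 for RBM24 over RBM38 and by −0.89 for RBMS2 over RBMS3.

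**Figure D4:**
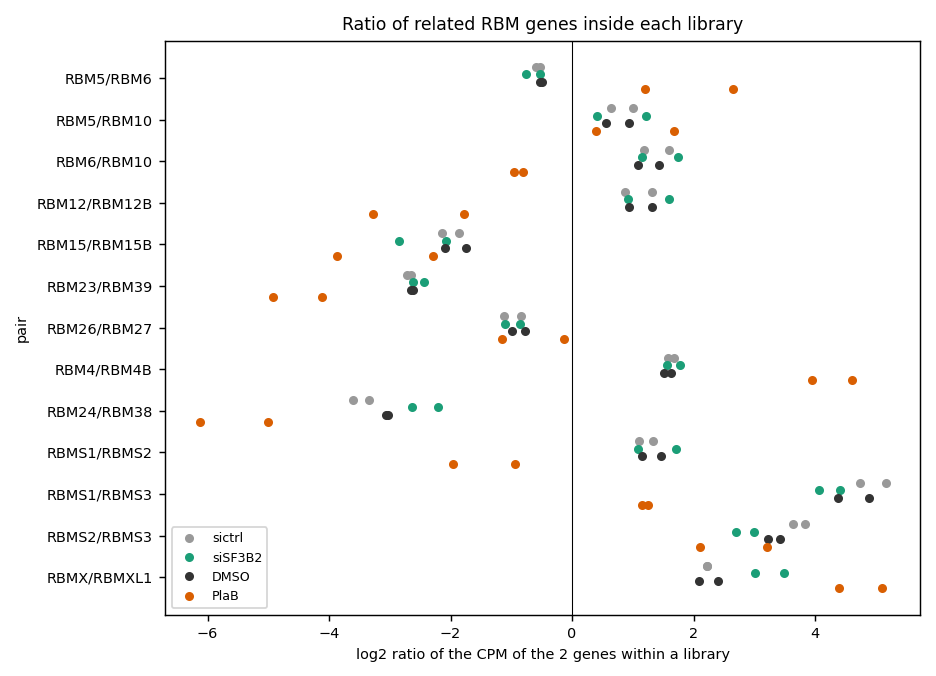
Each point is the log2 ratio of the CPM of 2 related RBM genes within 1 library, coloured by group. The PlaB points of RBM5/RBM6 (2.65 and 1.20) and RBM12/RBM12B (−1.77 and −3.27) lie across 0 from the DMSO points. With SF3B2 siRNA RBMX/RBMXL1 (3.49 and 3.02), RBM24/RBM38 (−2.64 and −2.20) and RBMS2/RBMS3 (2.99 and 2.70) are among the shifted pairs.

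With SF3B2 siRNA 0 of the 38 RBM genes were called against control siRNA by edgeR (background 0%, or 0 of 16488 genes), and every adjusted p was 1.0. At an unadjusted p under 0.05 there were 3 RBM genes, RBM24, RBMXL1 and RBM43, and 638 of all genes (3.87%). DESeq2 called 1 RBM gene, RBM24, and 33 of 15031 genes (0.220%). The median log2 fold change of the family was −0.08, in a range from −0.95 to 1.37. The siSF3B2 libraries lay above both sictrl libraries for 7 RBM genes (18.4%, against 19.9% of all genes) and below them for 9 (23.7%, against 19.2%), both near the background.

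RBM24, a muscle regulator of splicing and mRNA stability, was at 3.01 and 2.845 CPM with control siRNA and at 6.511 and 8.643 with SF3B2 siRNA, beside 3.981 and 4.602 with DMSO and 3.128 and 2.128 with pladienolide B. The siSF3B2 libraries were above all 6 others, with an edgeR log2 fold change of 1.37 ± 0.30 (adjusted p = 0.0213 in DESeq2 and 1.0 in edgeR). RBMXL1 was at 20.64 and 21.22 CPM with control siRNA and at 10.62 and 13.43 with SF3B2 siRNA, below all 6 other libraries (edgeR log2 fold change −0.80 ± 0.26). RBM43, with the values given above, had a log2 fold change of −0.95 ± 0.31 in edgeR.

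The difference between the pladienolide B effect and the siRNA effect was called for 24 of the 38 RBM genes (63.2%, against 53.7% of all genes tested). It was above 0 for 18 of them (47.4%, against 25.2%) and below 0 for 6 (15.8%, against 28.5%). The split depended on the processing, with 14 above and 8 below under library-size scaling and 18 and 8 with a replicate block. The all-gene shares for those 2 settings were not counted. The largest differences were those of RBM12B (4.52 ± 0.42, edgeR adjusted p = 0.000182) and RBM48 (4.35 ± 0.29, adjusted p = 0.000131), and at the other end RBMS1 (−4.71 ± 0.57, adjusted p = 0.000425). RBM24, which was called in neither treatment by edgeR, had a called difference of −2.08 ± 0.42 (adjusted p = 0.00432). The treatments also differed in time, at 24 h and 72 h, and in delivery, and these cannot be told apart from the agent.

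Between the control groups, sictrl and DMSO, 0 RBM genes were called by edgeR (background 0%) or DESeq2, with 0 RBM genes and 152 of all genes (0.922%) at an unadjusted p under 0.05 in edgeR. Both sictrl libraries were below both DMSO libraries for 15 RBM genes (39.5%, against 17.6% of all genes) and above them for 2 (5.26%, against 17.2%). The log2 fold changes were small, from −0.55 for RBM24 to 0.17, with a median of −0.06.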

How the data were processed

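RNA-seq of 8 PC3 libraries, from a stranded polyA kit per the labels' protocols, was used as the authors deposited it, in 1 table. Raw read counts per gene were deposited by the authors without normalization; TPM values in the authors' deposited table were used for levels compared between genes. The log2 values deposited by the authors, scaled by 1 constant per library, served only to recover those constants. The authors' own comparisons were deposited as a signed fold change, read as a score, with a p-value. FPKM values, deposited by the authors per the file headers, were not used. The submitters' processing notes name the aligners Bowtie2 2.3.5.1 and HISAT2 2.10, the trimmer Trimmomatic 0.38, edgeR and build GRCh38 without saying how each was used. How reads were counted, and whether by strand, the sources used here do not say.

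The test was edgeR 4.0.16 under R 4.3.3 (quasi-likelihood F-test, robust, TMM, filterByExpr at a minimum count of 10, two-sided), with 4 groups in 1 fit and 4 residual degrees of freedom, and Benjamini-Hochberg adjustment over 16488 genes at 0.05. SEs were derived from the fold change and F. The code was tested on simulated data. With 2 libraries a group an exact permutation test cannot reach 0.05 and none was run. Per-library values are given for the 6 highest and 6 lowest called RBM genes with pladienolide B, the 3 smallest p with siRNA and the 3 highest TPM; of each partner list, up to 2 called genes at each end, some of which are not reported here. Replicates differed by more than sampling noise (chi-square per degree of freedom 54 to 295). The 38 genes matched GENCODE release 44. RBM genes, lists and classes were chosen with earlier results of these data known. Alternatives were other scalings, no filter, a replicate block, only the groups compared, each library left out, and DESeq2 1.42.0.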

Additional observations from a re-analysis of the deposited data

How the results depend on the processing

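Under the 15 alternatives 15 RBM genes stayed called higher with pladienolide B (RBM3, RBM4, RBM5, RBM12B, RBM14, RBM15, RBM15B, RBM18, RBM22, RBM33, RBM38, RBM39, RBM42, RBM48 and RBMX) and 3 stayed lower (RBM43, RBMS1 and RBMS2). Leaving out each library in turn gave a median log2 fold change with pladienolide B of 0.62 to 0.87, beside −0.19 to −0.07 for all genes. For calls in those fits, the lone library left in a group was assumed to vary like the other groups. RLE scaling gave a median of 0.84 and library-size scaling one of −0.19, and DESeq2 called 1 gene with SF3B2 siRNA. With library-size scaling the all-gene median shifts too, and log2 fold changes turned negative for RBM12 (−0.15), RBM19 (−0.54), RBM23 (−0.23), RBM26 (−0.42), RBM27 (−0.79), RBM28 (−0.50), RBM4B (−0.61) and RBMX2 (−0.35), as did the difference of effects of RBMXL1 (−0.22); RBM10, RBM25 and RBM34 lost their calls there (0.87, 0.62 and 0.43). Among genes not called, signs also turned with RLE scaling for RBM7 (0.04) and RBMXL1 (0.04), and with a library left out. These ran from −0.12 without PlaB replicate 1 to 1.25 without PlaB replicate 2 for RBM12, from 0.16 without PlaB replicate 1 to −1.30 without PlaB replicate 2 for RBM6, from 0.12 to −0.41 likewise for RBM7, from 0.90 to −0.28 likewise for RBM26, and from −0.43 to 0.12 likewise for RBMXL1. For RBM27 they ran from −0.06 without DMSO replicate 1 to 0.22 without DMSO replicate 2, with −0.01 without PlaB replicate 2. Without PlaB replicate 1 RBM26 (0.90, adjusted p = 0.00373) and RBM24 (−1.02, 0.0189) were called, and without PlaB replicate 2 RBM12 (1.25, 0.000362) and RBM6 (−1.30, 0.00105). Library-size scaling also called RBM4B, RBM6, RBM7, RBM24, RBM27, RBM28, RBM47 and RBMXL1 lower. The causes were not tested. With replicate number as a block 28 genes were called with pladienolide B, where 33.6% of all genes were higher and 37.5% lower. Also with the block, 0 were called with siRNA, 26 for the difference and 0 between the controls, without counted all-gene shares. The block gave a median of 0.64. The block added calls for RBM47 with pladienolide B (−1.17, adjusted p = 0.0353) and for RBM41 (−1.38, 0.0433) and RBM45 (−1.11, 0.0209) in the difference of effects; same-numbered libraries correlated in their deviations by 0.118 to 0.429, but nothing in the labels pairs them. Fitting only the groups compared also lost RBM20, RBM23, RBMS3 and RBMX2, RLE scaling lost RBMS3, and no filter or the authors' constants lost RBMX2.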
